A study of Rattus norvegicus with 39 samples.

Results

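The NMDA receptor is the channel that ketamine blocks, and the genes described here are those of its subunits: Grin1 (ENSRNOG00000011726), Grin2a (ENSRNOG00000033942), Grin2b (ENSRNOG00000008766) and Grin2c (ENSRNOG00000003280). They were chosen by name and identifier, with earlier results of these data known, and make 4 of the 23978 genes in the deposited count table. The identifier of Grin2c came from the study's lists of differential expression in these rats, which name 1966 of the genes. The Grin2c difference between the cell types may therefore not be independent of that listing. All 4 passed the filter on low counts, as did 14129 genes in all. The table gives no gene coordinates, and a genome of its build (mRatBN7.2) was not used here. Of the 7 NMDA receptor subunit genes of the rat, Grin2d, Grin3a and Grin3b could not be paired with an identifier and were not analysed here.

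The data are 39 libraries of ribosome-bound mRNA from the nucleus accumbens (NAc), 1 library per rat. All rats were female Long Evans, heterozygous for Drd1a-iCre or Drd2-iCre (named D1-Cre and D2-Cre), and all carried a Cre-dependent virus in the NAc that puts a hemagglutinin tag on the ribosomal protein Rpl22 (RiboTag), so that pulling down the tag enriches the mRNA being translated in D1- or D2-expressing medium spiny neurons (MSNs). Any other cell that drives Cre from the same promoter is tagged as well. Rats in proestrus or in diestrus received 6 injections of saline or of 10 mg/kg racemic ketamine, 1 in each cycle at the same stage, and the tissue was taken 4 days after the last session, 30 min after a return to the test chamber. The 8 groups are thus D1 or D2, proestrus or diestrus, saline or ketamine, each with 5 libraries except D2 proestrus ketamine, which has 4 because the authors excluded 1 library. Several litters were represented in each treatment group, and the ketamine rats sequenced were only those whose locomotor activity had increased over treatment. The labels give no age.

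An NMDA receptor needs GluN1, the glycine-binding subunit encoded by Grin1, together with GluN2 subunits, which bind glutamate and set the kinetics and the magnesium sensitivity of the channel. GluN2B, from Grin2b, and GluN2A, from Grin2a, are the main GluN2 subunits of forebrain neurons, and GluN2B receptors close more slowly than GluN2A receptors. GluN2C, from Grin2c, is best known from cerebellar granule cells and is found in the forebrain in astrocytes and in some interneurons; its receptors are less sensitive to magnesium. Ketamine enters and blocks the open channel.

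Total counts per library ran from 16118050 to 43224256, with a single exception at 2396517 (library 39, D2 diestrus saline, in which Grin2a had 47 counts and Grin2c 41). D1 proestrus saline library 33 stood apart from its group, with a chi-square per gene of 157 to 201 against the other 4 libraries, which had 7.77 to 35.9 among themselves. Without it, Grin2c between the cell types in saline was 0.39 (edgeR adjusted p = 0.0684), Grin2a was 0.03 in place of -0.14 (adjusted p = 0.946), and the count of genes called between the cell types in proestrus saline went from 718 to 422; no member was called in any ketamine or cycle comparison. Adora2a, the adenosine receptor that marks D2-MSNs, was at 141 to 221 TMM-scaled counts per 1000000 (CPM) in the D1 libraries and at 452 to 1063 in the D2 libraries, which do not overlap. Of the D1-MSN markers on the list used here, 0 of 7 could be paired with an identifier, so the D1 label was checked only by the low Adora2a. Markers of other cells were present in every library. Only markers named in the study's lists of differential expression in these rats could be paired, so they are not an unselected set. The 4 astrocyte markers that could be paired (Gfap, Gja1, Sox9 and S100b, of 10 on the list; none at 0 in any library) summed to 97.0 to 148 CPM in the D1 libraries and 116 to 243 in the D2 libraries. The 4 vascular markers that could be paired of 8 (Flt1, Col1a1, Rgs5 and Col3a1; none at 0) summed to 4.60 to 8.52 CPM in D1 and 6.21 to 32.7 in D2. Sst and Nos1, markers of interneurons (2 of 10 paired; neither at 0), summed to 246 to 837 CPM in D1 and 72.4 to 290 in D2. In such bulk pulldowns, fewer cells of a type and less RNA per cell cannot be told apart.

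Levels below are CPM after TMM scaling (a correction for differences in library composition). Since transcript lengths were not used here, the CPM of one subunit is not compared with that of another. Differences are log2 fold changes from edgeR's quasi-likelihood test with 2 surrogate variables, fitted on all genes, with p-values adjusted over all genes tested (Benjamini-Hochberg), and a gene is called at an adjusted p under 0.1, the threshold of the study.

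**Figure D1:**
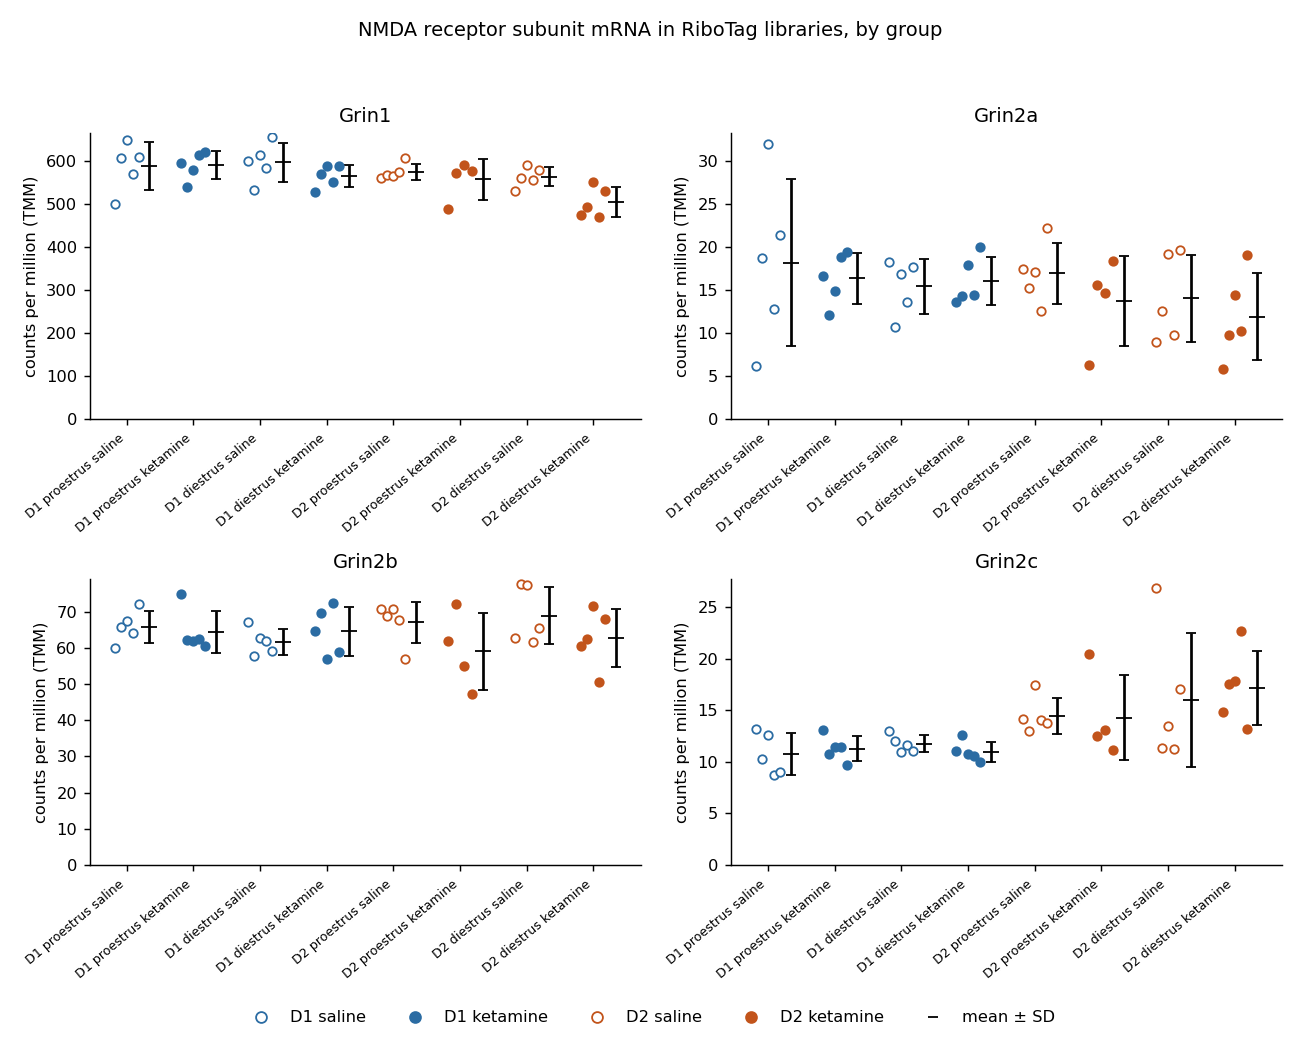
CPM of Grin1, Grin2a, Grin2b and Grin2c in each library, by group (D1 blue, D2 orange, saline open, ketamine filled; bars are the mean and SD of 4 or 5 libraries). Grin2c lies at 8.69 to 13.2 CPM in every D1 library and at 11.2 to 26.9 in the D2 libraries, whereas for the other subunits every pair of groups that differ in 1 factor overlaps.

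Grin2c was higher in D2- than in D1-MSN libraries, with saline and with ketamine. Among the saline rats the 10 D1 libraries were at 8.69 to 13.2 CPM (median 11.4) and the 10 D2 libraries at 11.3 to 26.9 CPM (median 13.9), a log2 fold change of 0.43 ± 0.14 (SE) or 1.34-fold (95% interval 1.096 to 1.65, edgeR adjusted p = 0.0365). Among the ketamine rats, which share no library with these, the 10 D1 libraries were at 9.75 to 13.1 CPM (median 10.9) and the 9 D2 libraries at 11.2 to 22.7 CPM (median 14.8), a log2 fold change of 0.39 ± 0.08 or 1.31-fold (95% interval 1.16 to 1.47, edgeR adjusted p = 0.00216). Of all genes tested, 28.8% were called between the cell types in saline and 18.0% in ketamine, so a call is a common event in both comparisons; 14.6% and 8.16% were called higher in D2 and 14.1% and 9.83% lower.

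The D1 libraries were close to each other. Grin2c was at 13.2, 10.3, 12.6, 8.69 and 8.98 CPM in the D1 proestrus saline libraries. With ketamine the D1 proestrus libraries were at 13.1, 10.7, 11.5, 11.5 and 9.75 CPM. The D1 diestrus libraries were at 13.0, 12.1, 10.9, 11.6 and 11.1 CPM with saline. These 3 groups overlap. With ketamine the D1 diestrus libraries were at 11.0, 12.6, 10.8, 10.6 and 9.95 CPM. The D2 libraries were more uneven, except in proestrus saline (SD 1.74 CPM in D2 against 2.06 in D1). The D2 proestrus saline libraries were at 14.2, 13.0, 17.5, 14.1 and 13.8 CPM, and only the lowest of them lies within the range of D1 proestrus saline. The D2 proestrus ketamine libraries were at 20.4, 12.5, 13.1 and 11.2 CPM. The D2 diestrus saline libraries were at 26.9, 11.3, 13.5, 11.3 and 17.1 CPM, the widest spread of the 8 groups (SD 6.51). The D2 diestrus ketamine libraries were at 14.8, 17.5, 17.8, 22.7 and 13.2 CPM. All 5 are above all 5 D1 diestrus ketamine libraries, the only pair of groups differing in 1 factor whose values do not overlap for any of the 4 subunits; between these 2 groups 4.54% of all genes do not overlap, against 6.17% between the cell types in proestrus saline, 5.72% in diestrus saline and 5.40% in proestrus ketamine.

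In order of the group means, Grin2c stood at 17.2 CPM in D2 diestrus ketamine, 16.0 in D2 diestrus saline, 14.5 in D2 proestrus saline, 14.3 in D2 proestrus ketamine, 11.8 in D1 diestrus saline, 11.3 in D1 proestrus ketamine, 11.0 in D1 diestrus ketamine and 10.7 in D1 proestrus saline. No 2 neighbours in this order differ by more than the larger of their SDs. All 4 D2 groups thus stand above all 4 D1 groups.

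Within a single stage, the saline comparison of cell types had 10 libraries and Grin2c was not called in either. In proestrus the log2 fold change was 0.37 ± 0.15 (edgeR adjusted p = 0.244; 5.41% of all genes were called), and it was called with blocks of library numbers in place of the surrogate variables (0.44, adjusted p = 0.0663) and without surrogate variables (0.43, adjusted p = 0.0976). In diestrus it was -0.14 ± 0.13 (edgeR adjusted p = 0.757; 4.11% of all genes were called), opposite in sign to the group means of 16.0 and 11.8 CPM. Without surrogate variables it was 0.43 (adjusted p = 0.316), so in diestrus the sign depends on the surrogate variables.

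Among the D2 libraries, Grin2c was higher where mRNA of glial and vascular markers was higher. Across the 19 D2 libraries, log2 Grin2c followed the summed astrocyte markers with Pearson's r = 0.85 and the vascular markers with 0.82. Across the 20 D1 libraries the same values were 0.22 and 0.03. The oligodendrocyte lineage markers Mog and Pdgfra gave 0.78 and 0.87 in D2 and -0.06 and 0.13 in D1, and the 2 microglia markers that could be paired of 7 (Aif1 and Tmem119, summed) gave 0.68 in D2 and 0.26 in D1. These points share libraries and their scaling, and the r are given as a description. In 7 D2 libraries the astrocyte sum exceeded that of every D1 library (148 to 243 CPM against at most 147.6), and in these 7 Grin2c was at 14.8 to 26.9 CPM, above all D1 libraries. In the other 12 D2 libraries Grin2c was at 11.2 to 17.1 CPM (median 13.2), overlapping the D1 range of 8.69 to 13.2 (median 11.1). With those 7 libraries left out, an alternative chosen after these values were seen, 8 of the 10 D2 saline libraries but only 4 of the 9 D2 ketamine libraries remained. The log2 fold change of Grin2c was 0.21 in saline (edgeR adjusted p = 0.126) and 0.17 in ketamine (adjusted p = 0.35) and was not called in either, while 2762 and 1365 of all genes were called. Of the 4 astrocyte markers, 2 were called higher in D2 in saline (Gja1 and Sox9) and 1 in ketamine (Gja1), and of the 4 vascular markers 3 in saline (Flt1, Col1a1 and Col3a1) and 2 in ketamine (Flt1 and Col3a1); Gfap was at 0.38 (adjusted p = 0.289) and 0.28 (adjusted p = 0.192). Gja1 was called higher in D2 in both treatments (0.59 and 0.39, edgeR adjusted p = 0.0105 and 0.0202), as were Flt1 (0.82 and 0.69, adjusted p = 0.0105 and 0.0044) and Col3a1 (1.50 and 1.19, adjusted p = 0.0155 and 0.0111). Since these markers were paired through the study's own lists of differential expression, their calls are not independent of that selection. The part of these cells in the Grin2c difference was not tested.

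**Figure D2:**
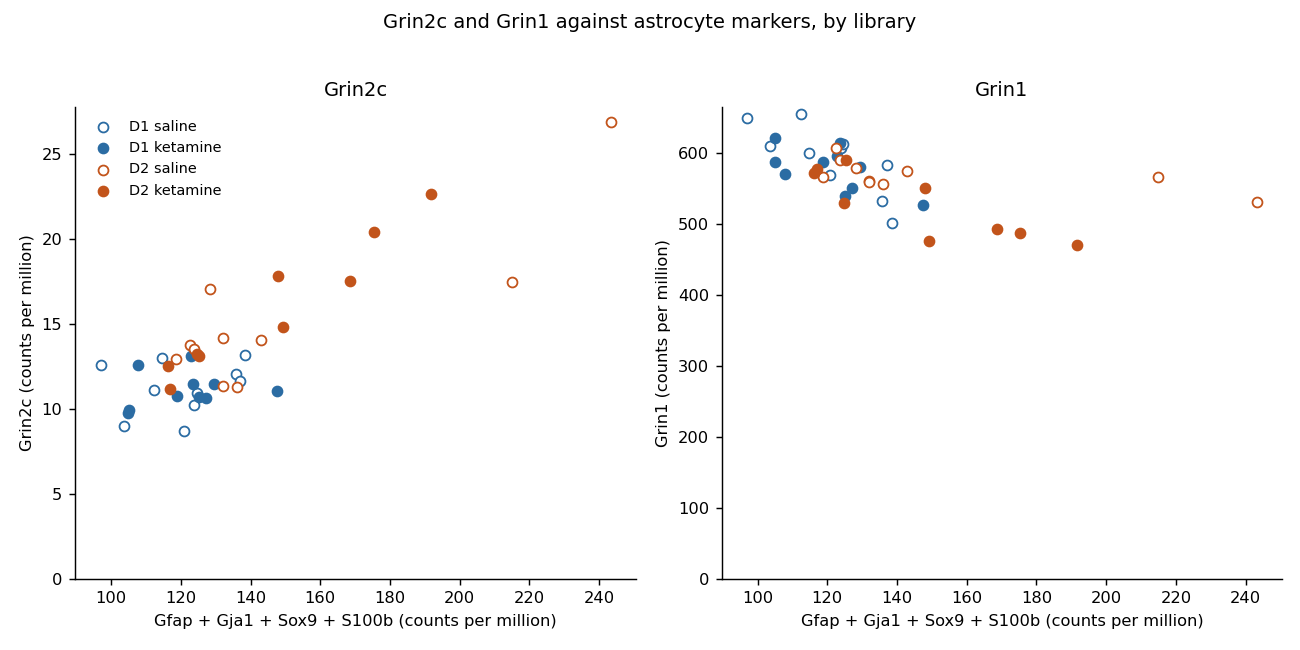
Grin2c (left) and Grin1 (right) in CPM against the summed CPM of 4 astrocyte markers, each point 1 library (D1 blue, D2 orange, saline open, ketamine filled). The D2 libraries reach 243 CPM of astrocyte markers and 26.9 CPM of Grin2c; Grin1 is lowest, at 470.1 CPM, in a D2 library with 192 CPM of astrocyte markers.

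The saline call of Grin2c was also lost with the estimated number of surrogate variables (0.25, edgeR adjusted p = 0.121), and it rested on single libraries. It was lost when any 1 of 5 libraries was left out, of 20 such fits: D1 proestrus saline libraries 1, 17 and 25 (log2 fold changes of 0.20, 0.27 and 0.35, adjusted p of 0.531, 0.36 and 0.14), D2 proestrus saline library 5 (0.33, adjusted p = 0.179) and D2 diestrus saline library 39, the shallow one (0.17, adjusted p = 0.555). The ketamine call was kept in all 19 such fits, at 0.31 to 0.48.

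**Figure D3:**
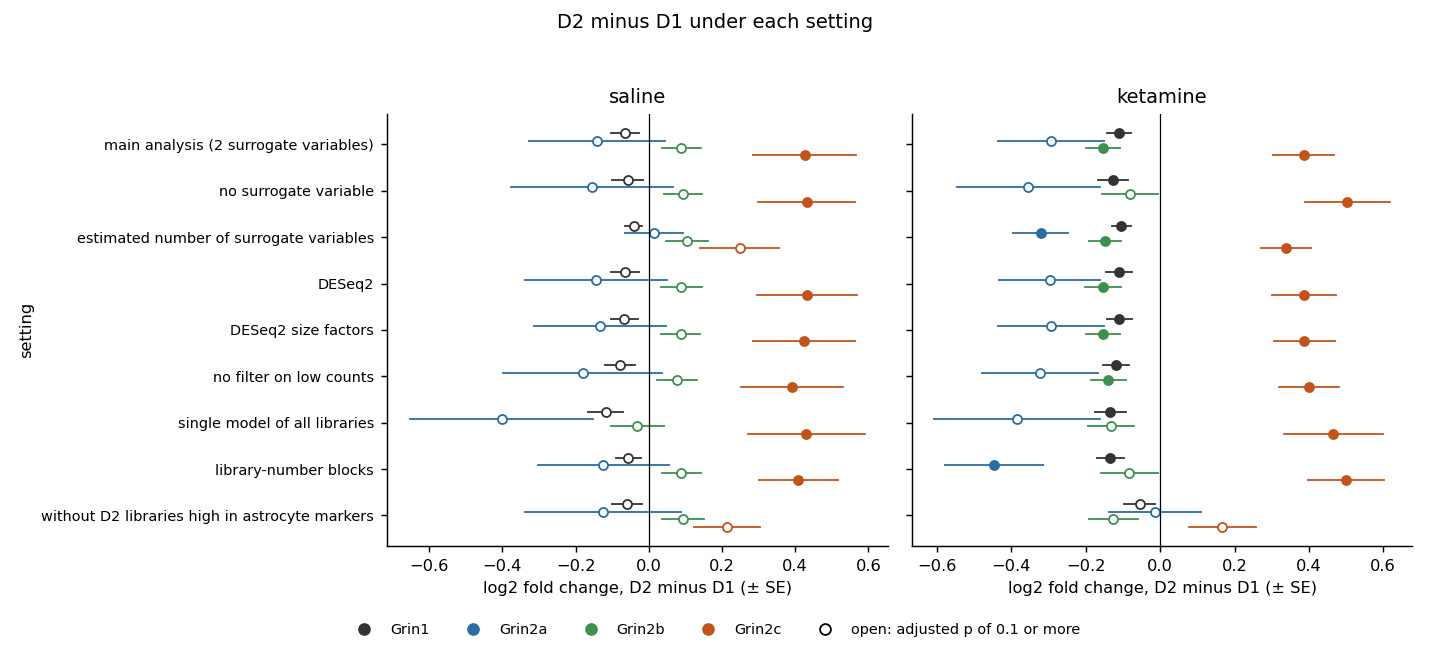
Log2 fold change between D2 and D1 libraries (± SE) of each subunit in saline (left) and ketamine (right) rats under each analysis setting; filled points were called at an adjusted p under 0.1. In saline Grin2c moves between 0.21 and 0.43, and in ketamine between 0.17 and 0.50, with the lowest values without the D2 libraries high in astrocyte markers.

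Grin1, the subunit that every NMDA receptor contains, was the most even of the 4 over all 39 libraries relative to its mean, but not within every group. In D1 proestrus saline its SD was 9.51% of the mean against 6.74% for Grin2b. In D1 diestrus saline it was 7.50% against 5.94% for Grin2b and 7.07% for Grin2c. Its group means ran from 596 CPM in D1 diestrus saline, through 589.5 in D1 proestrus ketamine, 587 in D1 proestrus saline, 574 in D2 proestrus saline, 564 in D1 diestrus ketamine, 563 in D2 diestrus saline and 556 in D2 proestrus ketamine, to 504 in D2 diestrus ketamine. The only step larger than the SD of both neighbours is the last, 52.7 CPM against SDs of 46.7 and 35.1. Among the ketamine rats Grin1 was lower in D2 than in D1 libraries, by a log2 fold change of -0.11 ± 0.03 or 0.926-fold (95% interval 0.883 to 0.972, edgeR adjusted p = 0.0285), which was called in all 19 fits without 1 library. Of all genes, 9.83% were called lower in D2 there. In saline the difference was -0.07 ± 0.04 (edgeR adjusted p = 0.229).

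The libraries show this small shift. Grin1 was at 595, 539, 579, 613 and 620.0 CPM in D1 proestrus ketamine and at 487, 571, 590.1 and 577 in D2 proestrus ketamine. It was at 527, 569, 587, 550.4 and 587 CPM in D1 diestrus ketamine and at 475, 493, 551, 470.1 and 529 in D2 diestrus ketamine. Both pairs overlap. The saline libraries overlapped as well, with medians of 607 CPM in D1 and 566 in D2 in proestrus and of 599 and 559 in diestrus. They were at 500.3, 607, 648, 569 and 609 CPM in D1 proestrus and at 560.2, 566, 565, 573 and 607 in D2 proestrus. In diestrus they were at 599, 532, 612, 582 and 655 CPM in D1 and at 531, 559, 589.8, 556 and 579 in D2.

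Grin1 was lower where astrocyte markers were higher, in D1 (r = -0.70) as in D2 libraries (r = -0.55), and so was Grin2a (r = -0.73 and -0.53). In the 7 D2 libraries above every D1 library in astrocyte markers, Grin1 had a median of 493 CPM (470.1 to 565), and in the other 12 D2 libraries a median of 572 CPM (529 to 607), within the D1 range of 500.3 to 655. Without those among the 7 that received ketamine, which left 4 of 9 D2 libraries, the ketamine difference was -0.05 (edgeR adjusted p = 0.553) and was not called.

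Grin2b was about level across the 8 groups, with means from 59.0 CPM in D2 proestrus ketamine to 68.9 in D2 diestrus saline. In between, the order was D2 proestrus saline (67.0), D1 proestrus saline (65.9), D1 diestrus ketamine (64.6), D1 proestrus ketamine (64.4), D2 diestrus ketamine (62.7) and D1 diestrus saline (61.7), and every step between neighbours was 2.68 CPM or less, below the SD of each of the groups. Among the ketamine rats Grin2b was called lower in D2 than in D1 libraries, at -0.15 ± 0.05 or 0.899-fold (95% interval 0.842 to 0.960, edgeR adjusted p = 0.0253). In saline it was 0.09 ± 0.05, not called (edgeR adjusted p = 0.254).

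The Grin2b call in ketamine depended on the analysis. It was lost without surrogate variables (-0.08, adjusted p = 0.594), with library-number blocks in their place (-0.08, adjusted p = 0.568), in a single model of all libraries (-0.13, adjusted p = 0.165), without the 5 D2 ketamine libraries high in astrocyte markers (-0.13, adjusted p = 0.338), and without library 2 (-0.12, adjusted p = 0.102), 38 (-0.08, adjusted p = 0.303) or 32 (-0.11, adjusted p = 0.161). The D2 ketamine libraries were at 61.8, 72.0, 55.1 and 47.2 CPM in proestrus and 60.7, 62.4, 71.6, 50.7 and 68.1 in diestrus. The D1 ketamine libraries were at 74.8, 62.1, 61.8, 62.6 and 60.4 CPM in proestrus and 64.7, 69.7, 57.0, 72.5 and 58.9 in diestrus. The D2 values overlap the D1 values in both stages and extend below them, not above. The saline libraries were at 60.0, 65.8, 67.4, 64.2 and 72.1 CPM in D1 proestrus and 67.2, 57.8, 62.7, 61.8 and 59.0 in D1 diestrus. In D2 they were at 70.9, 68.9, 70.7, 67.7 and 57.1 CPM in proestrus and 62.7, 77.6, 77.4, 61.8 and 65.4 in diestrus. The r of Grin2b with the astrocyte markers was -0.20 in D1 and -0.09 in D2 libraries.

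Grin2a varied widely from rat to rat. It ranged from 5.83 to 31.9 CPM over the 39 libraries, with SDs of 17.3% to 53.1% of the mean within groups, against 3.29% to 9.51% for Grin1, 5.94% to 17.8% for Grin2b and 7.07% to 40.6% for Grin2c. In D1 proestrus saline alone it was at 6.18, 18.7, 31.9, 12.7 and 21.3 CPM, so this group holds both the highest library of all and the lowest of the D1 libraries. The other D1 groups were narrower, at 16.5, 12.1, 14.9, 18.8 and 19.4 CPM in proestrus ketamine, 18.3, 10.7, 16.8, 13.6 and 17.6 in diestrus saline, and 13.6, 14.3, 17.9, 14.3 and 19.9 in diestrus ketamine. In D2 proestrus it was at 17.4, 15.2, 17.0, 12.5 and 22.2 CPM with saline and at 6.25, 15.5, 14.7 and 18.4 with ketamine. In D2 diestrus it was at 8.92, 12.6, 19.2, 9.77 and 19.6 CPM with saline and at 5.83, 9.74, 14.4, 10.2 and 19.0 with ketamine. All pairs of groups that differ in 1 factor overlap.

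The group means of Grin2a, in order, were 18.2 CPM in D1 proestrus saline, 16.9 in D2 proestrus saline, 16.3 in D1 proestrus ketamine, 16.0 in D1 diestrus ketamine, 15.4 in D1 diestrus saline, 13.999 in D2 diestrus saline, 13.7 in D2 proestrus ketamine and 11.9 in D2 diestrus ketamine, each within 1 SD of its neighbours. Between the cell types Grin2a was at -0.14 ± 0.19 in saline (edgeR adjusted p = 0.644) and -0.29 ± 0.14 in ketamine (edgeR adjusted p = 0.211), not called in either. In ketamine it was called lower in D2 with library-number blocks (-0.45, adjusted p = 0.0427) and with the estimated number of surrogate variables (-0.32, adjusted p = 0.00306). It was also called in 2 of the 19 fits without 1 library, those without library 38 (-0.40, edgeR adjusted p = 0.0912) or 32 (-0.35, edgeR adjusted p = 0.0760). It was near 0 without the 5 D2 ketamine libraries high in astrocyte markers (-0.01, adjusted p = 0.973).

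Across libraries, Grin2a and Grin1 moved together and Grin2b did not move with either. Over the 39 libraries the log2 levels of Grin1 and Grin2a had r = 0.83 (0.86 in D1 and 0.80 in D2). Grin2b had r = 0.17 with Grin1 and 0.19 with Grin2a. As a result the count ratio of Grin2b to Grin2a, whose differences between libraries depend on neither depth nor scaling, ran from 2.11 to 10.4 (median 4.52). It was highest in libraries 8 (D2 diestrus ketamine, 10.4), 6 (D2 proestrus ketamine, 9.90), 1 (D1 proestrus saline, 9.70) and 7 (D2 diestrus saline, 7.02), which belong to 4 different groups. The ratio overlapped between every cell type and treatment, with medians of 3.70 in D1 saline, 4.34 in D1 ketamine, 4.33 in D2 saline and 4.95 in D2 ketamine.

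All 4 are among libraries 1 to 8, and the level of Grin2a differed between runs of library numbers. Numbers 1 to 40 hold each of the 8 groups once in every 8 consecutive numbers, library 14 being the excluded one; the labels do not say whether the numbers mark a batch. Grin2a averaged 11.6 ± 5.41 CPM (SD, n = 8) in libraries 1 to 8, 13.3 ± 3.03 (n = 7) in 9 to 16, 18.5 ± 5.65 (n = 8) in 17 to 24, 13.3 ± 2.82 (n = 8) in 25 to 32 and 19.7 ± 1.49 (n = 8) in 33 to 40. Grin1 went the same way, from 534 ± 47.2 CPM in libraries 1 to 8 to 595 ± 36.9 in 33 to 40. Grin2b was at 65.3 ± 5.28 CPM in the first of these blocks and 61.0 ± 7.64 in the last. Each block holds every group, except that 9 to 16 lacks D2 proestrus ketamine, so the comparisons of groups could also be made within blocks. There, D2 exceeded D1 in Grin2c in 5 of 5 blocks in proestrus saline, 3 of 5 in diestrus saline, 4 of 4 in proestrus ketamine and 5 of 5 in diestrus ketamine. D2 was below D1 in Grin1 in 3 of 5 blocks in proestrus saline, 4 of 5 in diestrus saline, 4 of 4 in proestrus ketamine and 5 of 5 in diestrus ketamine. With the blocks in place of the surrogate variables, the difference between the cell types in ketamine was 0.50 for Grin2c (edgeR adjusted p = 0.00405), -0.13 for Grin1 (adjusted p = 0.0227), -0.45 for Grin2a (adjusted p = 0.0427) and -0.08 for Grin2b (adjusted p = 0.568).

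**Figure D4:**
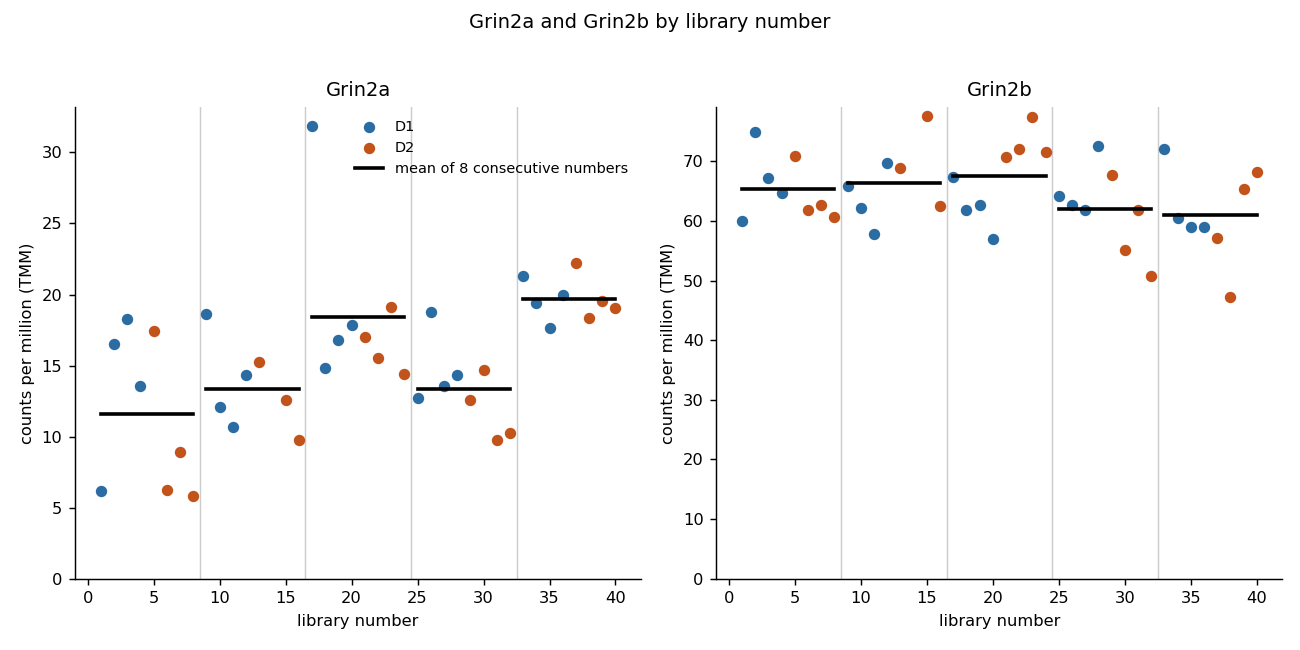
CPM of Grin2a (left) and Grin2b (right) against library number (D1 blue, D2 orange); black lines are the means of runs of 8 numbers, each with 1 library of every group except 9 to 16, which has 7 libraries and none of D2 proestrus ketamine. Grin2a averages 11.6 CPM in libraries 1 to 8 and 19.7 in 33 to 40, while Grin2b averages 65.3 and 61.0.

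Repeated ketamine changed none of the 4 subunits detectably in any cell type or stage. Against 0 of 4 members called in each of the 4 comparisons, edgeR called 0.00759% of all genes in D1 proestrus, 0.0227% in D1 diestrus, 0% in D2 proestrus and 0% in D2 diestrus, that is 1, 3, 0 and 0 genes; at an unadjusted p under 0.05 there were 764, 352, 457 and 355. DESeq2 with the same 2 surrogate variables called 15, 11, 1 and 0 genes and again no member, and edgeR with other settings called at most 26. The study, with DESeq2 and its own surrogate variables at the same threshold, reported more genes than edgeR called here in each of the 4 comparisons. That 0 members were called therefore does not show that the subunits were unchanged. The subunit values in the 2 treatments overlapped in every cell type and stage, where 0.750%, 0.418%, 1.17% and 0.672% of all genes did not.

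The intervals of these differences are those of the fit with 2 surrogate variables. For Grin1 the 95% interval of the ketamine fold ran from 0.969 to 1.07 in D1 proestrus, 0.887 to 1.01 in D1 diestrus, 0.889 to 1.03 in D2 proestrus and 0.849 to 1.01 in D2 diestrus. For Grin2b it ran from 0.894 to 1.08, 0.950 to 1.12, 0.831 to 1.08 and 0.815 to 1.09 in the same order. The intervals of Grin2c were 0.923 to 1.25 and 0.814 to 1.07 in D1, and 0.816 to 1.28 and 0.602 to 1.70 in D2. For Grin2a they were 0.937 to 1.20 and 0.908 to 1.22 in D1, and 0.510 to 1.06 and 0.618 to 1.79 in D2. These widths depend on the fit: for Grin2a in D1 proestrus the SE on the log2 scale was 0.083 with the surrogate variables, but 0.349 without them, where the difference was -0.15, and 0.352 with library-number blocks.

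The largest fitted ketamine difference among the members was that of Grin2a in D2 proestrus, -0.44 ± 0.23 (edgeR adjusted p = 0.999), where the lowest ketamine library, at 6.25 CPM, is library 6. Leaving out 1 library at a time moved it from -0.72 (without library 22) to -0.18 (without library 5), with -0.21 without library 6, and it was not called in any of these fits. For Grin1 in D2 diestrus, the ketamine library was below the saline library in 5 of 5 blocks of library numbers, and the fit gave -0.11 ± 0.06 (edgeR adjusted p = 1.00), or -0.16 ± 0.06 with the blocks in place of the surrogate variables (adjusted p = 0.951).

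**Figure D5:**
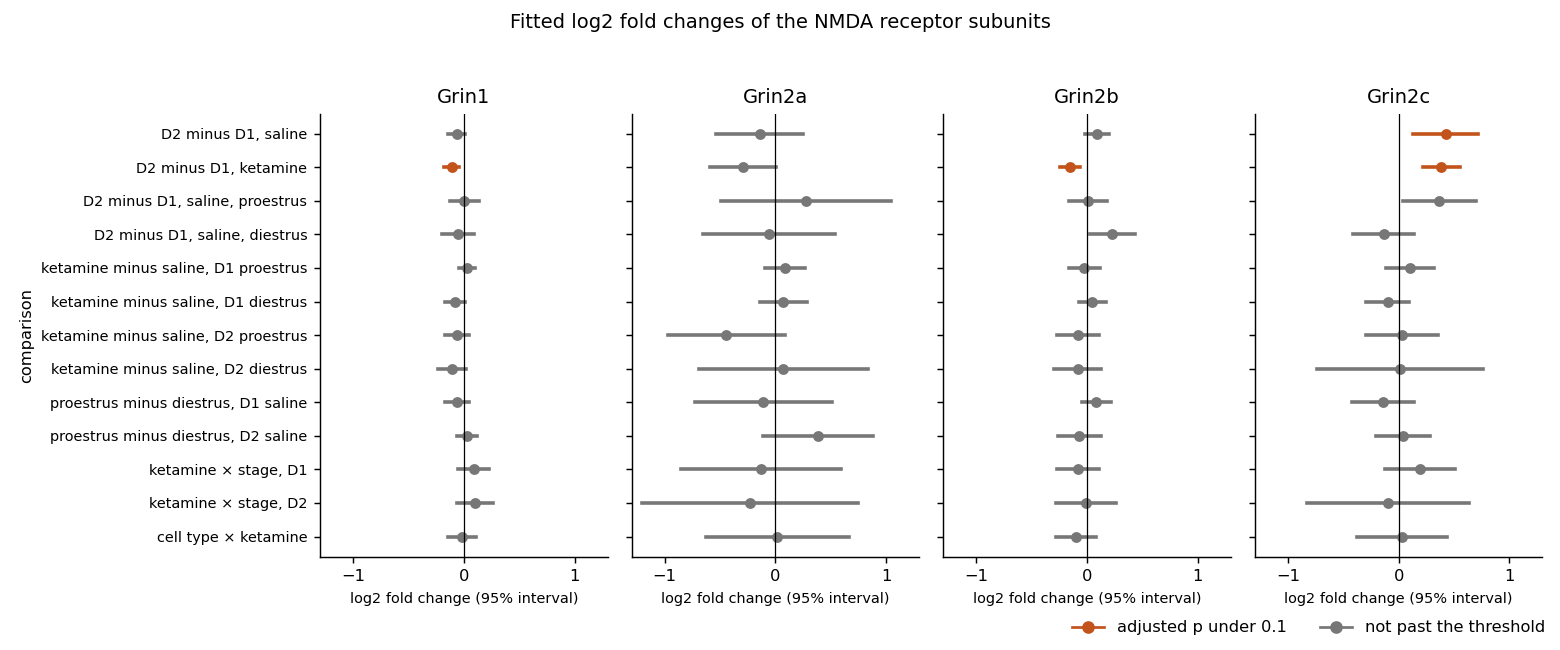
Fitted log2 fold changes of each subunit with 95% intervals in the 13 comparisons; orange marks an adjusted p under 0.1. The only calls are Grin2c between the cell types in saline (0.43) and ketamine (0.39), and Grin1 (-0.11) and Grin2b (-0.15) between the cell types in ketamine; all 4 ketamine comparisons of each subunit include 0.

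Cycle stage in saline rats changed no subunit detectably either. With edgeR, 0 of 4 members and 0% of all genes were called between proestrus and diestrus in D1 or in D2 libraries (522 and 545 genes at an unadjusted p under 0.05; DESeq2 called 2 and 0). The largest difference between the stages among the members was that of Grin2a in D2, 0.38 ± 0.22 higher in proestrus (edgeR adjusted p = 0.987).

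The differences of differences were tested too. The ketamine effect did not differ detectably between the stages for any member, in D1 or in D2 libraries, nor did the difference between cell types differ detectably with ketamine: edgeR called 0% of all genes in each of these 3 interaction tests, with 659, 248 and 352 genes at an unadjusted p under 0.05, and DESeq2 called 6, 0 and 2 genes and no member. The Grin1 and Grin2b calls in ketamine but not in saline are therefore not shown to differ with treatment: the interaction was -0.02 ± 0.06 for Grin1 and -0.10 ± 0.09 for Grin2b (edgeR adjusted p = 1.00 for both), with 95% intervals of -0.14 to 0.11 and -0.28 to 0.08 on the log2 scale.

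Genes of proteins that hold or modify the receptor could be paired only in part, through the same lists of differential expression. Dlg3, which encodes the scaffold SAP102, was at 0.07 ± 0.04 in saline (edgeR adjusted p = 0.216) and -0.02 ± 0.04 in ketamine (adjusted p = 0.84). Of 16 kinase and phosphatase genes 2 were paired. Fyn, a tyrosine kinase that phosphorylates GluN2B, was lower in D2 in both treatments, at -0.15 ± 0.03 in saline (adjusted p = 0.000873) and -0.13 ± 0.03 in ketamine (adjusted p = 0.006). Prkca, the protein kinase C alpha gene, was at -0.14 ± 0.16 in saline (adjusted p = 0.568) and lower in D2 in ketamine, at -0.27 ± 0.10 (adjusted p = 0.09).

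Srr, the serine racemase that makes the co-agonist D-serine, was the 1 gene paired of 9 for co-agonist and glutamate handling; it was at -0.01 ± 0.03 in saline (edgeR adjusted p = 0.865) and lower in D2 in ketamine, at -0.09 ± 0.03 (adjusted p = 0.0809). Nos1, the neuronal nitric oxide synthase that is coupled to the receptor and marks a class of interneurons, was the 1 gene paired of 12 for calcium and downstream effectors, and was lower in D2 by more than any subunit differed, at -1.78 ± 0.17 in saline (adjusted p = 9.14e-07) and -1.82 ± 0.21 in ketamine (adjusted p = 2.01e-05). The median log2 fold change of all genes in these comparisons was 0.00. None of Dlg3, Fyn, Prkca, Srr and Nos1 was called between ketamine and saline.

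The genes whose levels most resembled each subunit over the 39 libraries were sought by Pearson's r of log2 CPM. The search covered only 1596 genes with a symbol, of 14129 past the filter. As the study's lists of differential expression gave the symbols, closer genes may lie outside this set. They were Med14 (0.87), Xpr1 (0.86) and Prkca (0.86) for Grin1, and Stxbp5l (0.95), Tnr (0.93) and Prkca (0.90) for Grin2a. For Grin2c they were Sat1, a polyamine-acetylating enzyme (0.86), and the collagen genes Col5a2 (0.86) and Col11a2 (0.83). For Grin2b no gene of this set came above 0.65 (Ppp2r5a, then Syncrip at 0.64 and Cdk19 at 0.63). Without libraries 17 and 39 these r stayed within 0.63 and 0.94.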

How the data were processed

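Per the labels and the study's methods, the authors trimmed reads with fastp 0.23.4, checked them with FastQC 0.12.1 and quantified them with Salmon 1.10.2 against mRatBN7.2, and deposited estimated counts per gene (expected counts, given as whole numbers, not normalized) for 39 libraries. They excluded 1 further library. Every column of the table matched a library number of the labels.

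From these counts, genes were filtered within each comparison (edgeR's filterByExpr, minimum count 10), scaled by TMM and tested with edgeR 4.0.16 (robust quasi-likelihood test, R 4.3.3) with 2 surrogate variables from sva 3.50.0; the study's design also had surrogate variables, and their number here was a choice of this re-analysis. The comparison of cell types also had the cycle stage. P-values were adjusted over all genes tested. The 95% intervals are the fitted log2 fold change ± its SE times the t quantile. The members and the gene lists were chosen with earlier results of these data known. Symbols came from the study's supplementary tables of differential expression in these rats (1966 of 23978 identifiers) and, for 3 subunits, from the rule that chose them. Named genes are the members, up to 4 called genes per list with markers of D2-MSNs and astrocytes, and the 3 genes most like each member. Correlations used log2 CPM with a prior count of 2. No pair of libraries of a group agreed within sampling noise (lowest chi-square per gene 2.74). Each library is 1 rat, so p-values measure spread between rats, but only what remains after the surrogate variables, which were estimated from the same data. Library 39 is the least precise, with 2396517 counts against a median of 20494896. Alternatives tried were no or an estimated number of surrogate variables, DESeq2 1.42.0, its size factors, no filter, a single model of all libraries, each library left out and, chosen after the data were seen, blocks of library numbers and the D2 libraries high in astrocyte markers left out. Some genes of the lists are not reported here.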

Additional observations from a re-analysis of the deposited data

Results flagged for a closer look

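In the 64 sets of 4 or 5 libraries examined (8 groups, for the 4 subunits, 3 count ratios and the total count), 7 held a library far from the others by Dixon's test at the 95% level, where chance alone would give about 1 in 20. D2 proestrus saline library 37 had the highest Grin1 of its group (607 CPM, next 573) and the lowest Grin2b (57.1 CPM, next 67.7). In the same group library 21, with 215 CPM of summed astrocyte markers, had the highest Grin2c (17.5 CPM, next 14.2). D1 proestrus ketamine library 2 had the highest Grin2b of its group (74.8 CPM, next 62.6). D2 diestrus saline library 31 had the lowest sum of Grin2a, Grin2b and Grin2c counts relative to Grin1 (14.9%, next 17.6%). The total count was low in library 39 (2396517) of D2 diestrus saline and in library 40 (16175294) of D2 diestrus ketamine.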

How the results depend on the processing

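The labels give no replicate number that 2 groups have in common, so rats were not paired by label. Runs of 8 consecutive library numbers, which the labels do not call a batch, were fitted instead and are given below as blocks. Of the members' fitted log2 fold changes under other settings, 321 kept their direction and call, 35 changed sign, 4 gained a call and 8 lost one; no value that was called, in either fit, changed sign. Scaling by DESeq2 size factors moved no subunit's CPM by more than 1.14%. Why values moved was not tested. Depth limits library 39 most.

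Between the cell types in saline, the estimated number of surrogate variables (5) gave Grin2a 0.015 and Grin2c 0.25, with 0 members called; the single model gave Grin2b -0.031; without the D2 libraries high in astrocyte markers Grin2c was 0.21, with 0 members called. In ketamine, Grin2b was -0.081 without surrogate variables, -0.13 in the single model, -0.083 with library-number blocks and -0.13 without the high-astrocyte libraries, which also gave Grin1 -0.055 and Grin2c 0.17, with 0 members called; Grin2a was -0.32 with the estimated number and -0.45 with blocks. In proestrus saline, no surrogate variables gave Grin1 -0.035, Grin2a -0.11 and Grin2c 0.43 with 1 member called, the estimated number Grin1 -0.041 and Grin2b -0.0037, the single model Grin1 -0.086, Grin2a -0.32 and Grin2b -0.12, and blocks Grin1 -0.031 and Grin2c 0.44 with 1 member called. In diestrus saline, Grin2c was 0.43 without surrogate variables, 0.44 in the single model and 0.35 with blocks.

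For ketamine in D1 proestrus, Grin2a was -0.15 without surrogate variables, -0.19 in the single model and -0.014 with blocks, and Grin1 -0.0023 in the single model. In D2 proestrus, Grin2c was -0.020, -0.030 and -0.089 under the same 3 settings. In D2 diestrus, Grin2a was -0.19 without surrogate variables and -0.28 with blocks. Between the stages, Grin2a in D1 was 0.24, 0.28 and 0.12 and Grin2c in D2 -0.14, -0.16 and -0.061 without surrogate variables, in the single model and with blocks. Of the interactions, ketamine by stage gave 0.066 for Grin2a in D1 with the estimated number, and 0.0078 without the filter and 0.0064 in the single model for Grin2b in D2. Cell type by ketamine gave Grin2a -0.19 without surrogate variables, -0.12 with the estimated number, -0.015 without the filter and -0.30 with blocks.

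Leaving out 1 library at a time, the saline comparison of cell types gave 0.17 to 0.47 for Grin2c, -0.28 to 0.036 for Grin2a, 0.052 to 0.12 for Grin2b and 0 to 2 members called; the 3941 genes called became 1237 without library 1, 1566 without 17, 1916 without 39 and 2450 without 5. The 718 of proestrus saline became 286 without library 37, 376 without 25, 422 without 33, 467 without 13 and 1697 without 5, and the 546 of diestrus saline 273 without 23, 308 without 31 and 925 without 39. The ketamine comparison gave -0.18 to -0.075 for Grin2b and -0.40 to -0.22 for Grin2a. Proestrus saline gave -0.046 to 0.028 for Grin1, -0.023 to 0.12 for Grin2b, 0.24 to 0.47 for Grin2c and 0 to 1 members called. Diestrus saline gave -0.42 to 0.16 for Grin2a, -0.28 to 0.024 for Grin2c, 0.16 to 0.34 for Grin2b and 0 to 1 members called. Ketamine in D1 proestrus gave -0.028 to 0.044 for Grin1, -0.20 to 0.26 for Grin2a and -0.092 to 0.016 for Grin2b; in D1 diestrus -0.023 to 0.14 for Grin2a and -0.0083 to 0.11 for Grin2b; in D2 proestrus -0.16 to 0.19 for Grin2c; and in D2 diestrus -0.30 to 0.31 for Grin2a, -0.14 to 0.0065 for Grin2b and -0.18 to 0.46 for Grin2c. The stages gave -0.26 to 0.22 for Grin2a in D1 and -0.0099 to 0.22 for Grin2c in D2. Ketamine by stage gave -0.38 to 0.085 for Grin2a in D1, and -0.090 to 0.066 for Grin2b, -0.50 to 0.019 for Grin2a and -0.50 to 0.046 for Grin2c in D2. Cell type by ketamine gave -0.059 to 0.18 for Grin2c, -0.25 to 0.13 for Grin2a and -0.064 to 0.0055 for Grin1.

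The count of all genes called moved by more than 1.5 times from 3941 to 1848 in the single model (saline), from 2492 to 1365 without the high-astrocyte libraries (ketamine), from 718 to 1090 with the estimated number (proestrus saline), and from 546 to 1076 without surrogate variables, 854 in the single model and 1348 with blocks (diestrus saline). For ketamine in D1 proestrus 1 became 26 with the estimated number and 15 with DESeq2, in D1 diestrus 3 became 11 with DESeq2, and in D2 proestrus 0 became 3 without the filter and 1 with DESeq2; D1 stages went from 0 to 5 and 2 under the estimated number and DESeq2, and D2 stages from 0 to 1 without the filter.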
